A study of Mus musculus with 10 samples.

Results

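The genes by which a cell takes up, stores, exports and senses iron were examined in mouse skin that overexpresses hepcidin. They are 10 genes chosen by symbol and found through their Ensembl identifiers: the transferrin receptor Tfrc, the metal transporter Slc11a2, the ferritin chains Fth1 and Ftl1, the ferritin receptor Ncoa4, ferroportin (Slc40a1), the ferroxidases Cp and Heph, and the iron regulatory proteins Aco1 and Ireb2. All 10 were found among the 55487 genes of the tables, and all 10 passed the filter on low counts that left 17321 genes to test. The samples were skin of 5 wild type mice (WT) and 5 mice whose genotype is written Hamp1-KI ker (KI), with 1 library per mouse. Age, strain, sex, skin site, the promoter and the meaning of "ker" are not given in the labels. Titles carry the prefix EAS37 (WT 1 to 3, KI 1 and KI 2) or EAS42 (WT 4, WT 5, KI 3 to KI 5), and what the prefix stands for is not stated.

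Cells take up transferrin-bound iron through the transferrin receptor, and Slc11a2 (DMT1) then carries the reduced iron out of the endosome. Ferritin, a shell of heavy chains (Fth1) and light chains (Ftl1), stores what is not used, Ncoa4 delivers ferritin for breakdown, and ferroportin is the exporter that hepcidin binds and sends to degradation. The iron regulatory proteins Aco1 (IRP1) and Ireb2 (IRP2) bind stem-loops in messenger RNA called iron-responsive elements when the cell is short of iron. Bound in a 5′ UTR the element blocks translation, as in the ferritins, and bound in a 3′ UTR it protects the message from decay, as in Tfrc. Hepcidin's action on ferroportin is on the protein, and translation control by these elements is not read by RNA abundance.

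The elements are shown because they divide the genes by how iron is known to act on them. A pattern search of GENCODE M21 transcripts (GRCm38) looked for the letters CNNNNNCAGTGN on the transcript's own strand, followed by 5 bases of which at least 4 could pair (G-U pairs counted) with the 5 bases before CAGTGN. It found a match in a 5′ UTR of 3 of the 10 genes, in a 3′ UTR of 2, and in no UTR of 5. Among 22527 coding genes 0.932% had a match in a 5′ UTR and 4.47% in a 3′ UTR. Each 30-base site is written 5′ to 3′ as the transcript strand, in DNA letters, with the 6-base loop in capitals.
Fth1, 5′ UTR, chr19:9982731-9982760, plus strand: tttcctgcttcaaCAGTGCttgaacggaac
Ftl1, 5′ UTR, chr7:45459779-45459808, minus strand: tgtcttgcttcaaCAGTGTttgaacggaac
Slc40a1, 5′ UTR, chr1:45925465-45925494, minus strand: ccaacttcagctaCAGTGTtagctaagttt
Tfrc, 3′ UTR, chr16:32631218-32631247, plus strand: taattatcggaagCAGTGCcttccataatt
Tfrc, 3′ UTR, chr16:32631597-32631626, plus strand: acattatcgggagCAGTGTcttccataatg
Tfrc, 3′ UTR, chr16:32631662-32631691, plus strand: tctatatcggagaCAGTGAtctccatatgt
Tfrc, 3′ UTR, chr16:32631709-32631738, plus strand: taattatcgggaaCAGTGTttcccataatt
Slc11a2, 3′ UTR, chr15:100395153-100395182, minus strand: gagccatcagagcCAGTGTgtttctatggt
The Slc11a2 stem had 4 of 5 pairs and the others had 5 of 5. The match lay in 4 of 5 coding transcripts of Fth1, 2 of 3 of Ftl1, 1 of 4 of Slc40a1, 1 of 3 of Tfrc and 1 of 7 of Slc11a2. Heph held a match inside its coding sequence, and Cp, Ncoa4, Aco1 and Ireb2 held none. A match is a description of the letters and not a tested binding site, and no match says only that this pattern was not found.

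The libraries held between 18.96 and 26.43 M expected counts, which are the authors' estimates of reads per gene. Hamp, the hepcidin gene, checked the labels: it lay between 1.86 and 3.33 CPM (counts scaled to library size) in WT and between 85.6 and 168.9 CPM in KI. Markers of basal keratinocytes, which are 1 layer of the epidermis and not the whole of it, had mean levels of 9.97 to 10.28 log2 CPM in WT. In KI these levels were 9.79 to 10.09, and of the 7 markers 3 fell, 1 rose and 3 did not pass. Levels of markers of other tissues were as follows. The skeletal muscle level (mean log2 CPM of 20 markers) ran from 10.17 to 10.94 in WT and from 6.91 to 10.31 in KI. The adipocyte level ran from 6.65 to 7.45 in WT and from 5.49 to 6.46 in KI, and the fibroblast level from 8.19 to 9.15 and from 7.72 to 8.68. In whole skin, fewer cells of a type and less RNA per cell cannot be told apart.

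Both ferritin chains and the ferroxidase Cp fell in KI skin, and the other 7 genes did not pass the test. The test was the quasi-likelihood test of edgeR across 17321 genes, with a Benjamini-Hochberg adjusted p under 0.05 as the threshold. Of all genes tested 30.9% passed, 15.3% lower and 15.6% higher, so 3 of 10 (30%) is near the background and is not a result about these genes as a set. All 3 that passed were lower and 0 were higher (also 0 at an unadjusted p under 0.05, and 0 by DESeq2 or limma-voom). The median log2 fold change was -0.11 for the 10 genes and -0.01 for all genes, and the median size of the change was 0.19 against 0.30. Library ranges in CPM did not overlap between the groups for the same 3 genes, against 20.3% of genes tested.

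The levels spanned a wide range in TPM, the deposited unit that corrects for transcript length and lets genes be compared. In WT skin Fth1 came first at 1509 ± 169 TPM (SD, n = 5), followed by Ftl1 at 916 ± 133 TPM. Ncoa4 (36.8 ± 5.41 TPM), Tfrc (30.2 ± 4.45), Slc40a1 (30.2 ± 19.6) and Aco1 (29.3 ± 4.56) came next, and then Slc11a2 (19.5 ± 3.48), Ireb2 (18.7 ± 1.72), Cp (13.5 ± 3.42) and Heph (9.35 ± 1.71). Neighbours in this order were separated in all 5 WT libraries for Fth1 over Ftl1, Ftl1 over Ncoa4, Ncoa4 over Tfrc, Aco1 over Slc11a2, Ireb2 over Cp and Cp over Heph. Tfrc, Slc40a1 and Aco1 were not ordered alike in all WT libraries, nor were Slc11a2 and Ireb2. In KI skin Fth1 (906 ± 205 TPM), Ftl1 (680 ± 77.6) and Ncoa4 (34.6 ± 4.19) kept the leading ranks by mean. Ncoa4 exceeded Tfrc in only 4 of 5 KI libraries. Cp (7.74 ± 1.53 TPM) exceeded Heph (7.14 ± 1.19) in only 2 of 5 KI libraries.

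**Figure D1:**
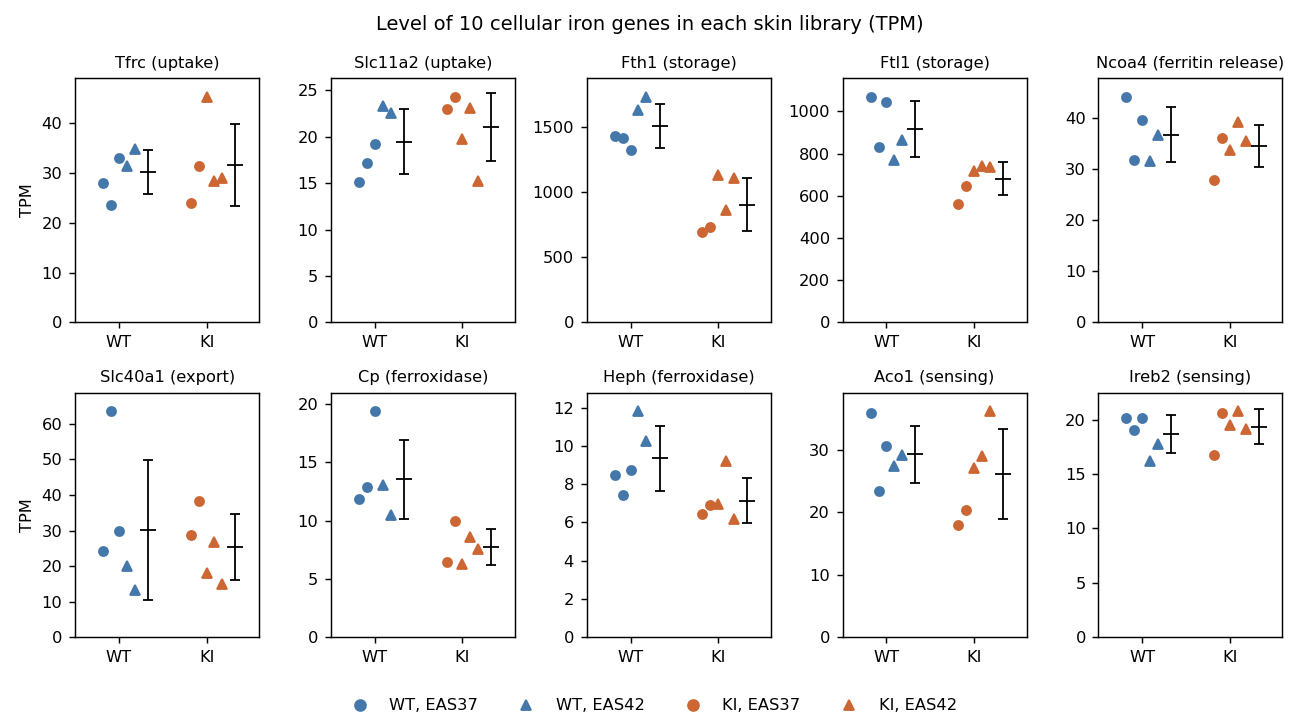
Level of each of the 10 genes in TPM (vertical axes, each from 0) in the 5 WT (blue) and 5 KI (orange) libraries, with circles for EAS37 and triangles for EAS42; black marks and bars are the mean and SD. Fth1, Ftl1 and Cp show no overlap between the groups, while the WT 2 point of Slc40a1 (63.5 TPM) and the KI 3 point of Tfrc (45.4 TPM) stand above the rest of their groups.

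Tfrc, which brings in transferrin-bound iron, had overlapping ranges in both genotypes (chromosome 16, 32608920 to 32632794, plus strand). Its TPM was 28.0, 23.6, 33.1, 31.4 and 34.9 in WT 1 to WT 5 and 23.9, 31.4, 45.4, 28.5 and 29.0 in KI 1 to KI 5. KI 3 held the highest value, and the other KI libraries lay within the WT range. KI differed from WT by a log2 fold change (KI over WT throughout) of 0.16 ± 0.17, where ± is the SE (edgeR adjusted p = 0.517), with a 95% interval of -0.23 to 0.54. Without KI 3 it was -0.04. Within EAS37 it was 0.15 and within EAS42 0.08, from a model with both prefixes.

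Slc11a2, the endosomal iron transporter (chromosome 15, 100387898 to 100425072, minus strand), had changes of opposite sign under the title prefixes, a difference that did not pass the test. Its TPM was 15.1, 17.2, 19.2, 23.3 and 22.5 in WT 1 to WT 5, and 22.9, 24.3, 19.8, 23.1 and 15.3 in KI 1 to KI 5. Both EAS37 KI libraries exceeded all 3 EAS37 WT libraries, whereas among EAS42 libraries KI 5 was the lowest and the ranges overlapped in part. Over all libraries Slc11a2 had a log2 fold change of 0.23 ± 0.15 (edgeR adjusted p = 0.265; 95% interval -0.10 to 0.56). Within EAS37 it was 0.59 ± 0.16 (edgeR adjusted p = 0.016) and within EAS42 -0.13 ± 0.16 (edgeR adjusted p = 0.624). The difference between the prefixes was -0.72 ± 0.22 and did not pass (edgeR adjusted p = 0.142). Without KI 5 the change over both prefixes was 0.35 and passed (edgeR adjusted p = 0.0405).

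Transcript forms of Slc11a2 with and without the 3′ element cannot be counted apart in gene tables, but the deposited mean transcript length of a gene shifts with its mix of forms. For Slc11a2 this length was 3343, 3114, 3135, 2810 and 3037 bases in WT 1 to WT 5, and 3033, 3047, 3370, 3034 and 3104 bases in KI 1 to KI 5. KI 3 had the longest mean form. The transcript that carries the element is 4415 bases long. For Tfrc, whose element-bearing transcript is 4890 bases long, the mean length was likewise highest in KI 3, at 4135 bases, against 3612 to 3848 bases in the other KI libraries and 3726 to 3872 bases in WT. The group means of both genes differed little (exact two-sided permutation p = 0.897 for Slc11a2 and 0.960 for Tfrc).

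Fth1, the ferritin chain with ferroxidase activity (chromosome 19, 9980598 to 9985098, plus strand), was the most abundant of the 10 genes and fell in KI skin. Its TPM was 1435, 1415, 1329, 1631 and 1737 in WT 1 to WT 5 and 698, 730, 1132, 862 and 1108 in KI 1 to KI 5. Every KI library lay below every WT library, and the EAS37 libraries lay lowest in KI. In the count model Fth1 fell by 36.6%, or -0.66 ± 0.14 on the log2 scale (edgeR adjusted p = 0.00625). Of all genes tested 23.7% had a change at least as large. It stood at -0.76 ± 0.13 within EAS37 (edgeR adjusted p = 0.00187) and -0.70 ± 0.13 within EAS42 (edgeR adjusted p = 0.0074). Fth1 passed without each library in turn, with values from -0.74 to -0.59.

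Ftl1, the light chain that helps the iron core form (chromosome 7, 45457944 to 45459884, minus strand), fell less. Its TPM was 1070, 830, 1044, 771 and 866 in WT 1 to WT 5 and 560, 645, 716, 743 and 738 in KI 1 to KI 5. The groups did not overlap, but the highest KI library (743 TPM) came close to the lowest WT library (771 TPM). In the count model Ftl1 fell by 22.3%, or -0.36 ± 0.09 on the log2 scale (edgeR adjusted p = 0.0146). It was -0.51 ± 0.11 within EAS37 (edgeR adjusted p = 0.00525) and -0.19 ± 0.11 within EAS42, where it did not pass (edgeR adjusted p = 0.251). The difference between the prefixes was 0.32 ± 0.15 (edgeR adjusted p = 0.302).

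Ferritin genes have processed copies in the genome that could take up some of their reads. The copies annotated by name held 3.74% to 4.67% of the summed light chain counts and at most 0.025% of the heavy chain counts. With the copies added the log2 change in summed CPM was -0.36 for the light chain and -0.67 for the heavy chain (exact two-sided permutation p = 0.00794 for each, adjusted p = 0.00794; no smaller p exists for 5 against 5). The copy Ftl1-ps1 had a log2 fold change of -0.38 ± 0.09, and reads of Ftl1 and this copy may be split with some error. The mean transcript length of Ftl1 was 952 to 962 bases in WT and 938 to 950 bases in KI (exact two-sided permutation p = 0.00794, adjusted over 10 genes p = 0.0794). A single fully separated gene among 10 cannot go below that adjusted value, so the lack of a pass says nothing about the lengths, and Ftl1 alone had an unadjusted p under 0.05.

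Ncoa4, the receptor that hands ferritin to the lysosome (chromosome 14, 32159865 to 32179855, plus strand), had overlapping groups. Its TPM was 44.3, 31.8, 39.8, 31.6 and 36.8 in WT 1 to WT 5 and 28.0, 36.2, 33.8, 39.4 and 35.6 in KI 1 to KI 5. WT 1 was highest and KI 1 lowest. Its log2 fold change of -0.01 ± 0.09 did not pass (edgeR adjusted p = 0.935), and its 95% interval of -0.21 to 0.19 leaves out a change as large as that of Fth1.

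Slc40a1, the exporter ferroportin (chromosome 1, 45908068 to 45926523, minus strand), varied more between libraries than between genotypes. Its TPM was 24.2, 63.5, 30.0, 20.0 and 13.2 in WT 1 to WT 5 and 28.9, 38.4, 18.2, 26.8 and 15.1 in KI 1 to KI 5. WT 2 and KI 2 were the highest of their groups, and WT 5 and KI 5 the lowest. Between genotypes Slc40a1 differed by -0.15 ± 0.42 in log2 (edgeR adjusted p = 0.809), with a wide 95% interval of -1.10 to 0.79. Without WT 2 it was 0.33, and without WT 2 and KI 2 together 0.14. With the genotype in the model, EAS42 libraries had less Slc40a1 than EAS37 libraries by a log2 difference of -1.06 ± 0.30 (edgeR adjusted p = 0.105). The prefix effect passed for 0 of the 10 genes (2 at an unadjusted p under 0.05, Slc40a1 and Fth1) and for 2.47% of all genes. This fit of the prefix effect was added after the values were seen.

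The level of hair shaft markers, 7 keratin genes of the hair shaft and its inner sheath, also differed between libraries. It was 2.82, 8.38, 4.82, -1.80 and 0.33 log2 CPM in WT 1 to WT 5 and 4.07, 6.29, -2.60, -2.67 and -0.66 in KI 1 to KI 5. WT 2 and KI 2 had the highest level of their groups, as they had for Slc40a1, and each EAS37 library lay above each EAS42 library. Among EAS42 libraries the ends of the order were reversed. WT 5 had the highest level (0.33) and the lowest Slc40a1 (31.4 CPM) there. KI 4 had the lowest level (-2.67) and the highest Slc40a1 (62.2 CPM). With genotype in the model, the slope of Slc40a1 on this level was 0.15 ± 0.03 log2 units per unit (edgeR adjusted p = 0.0501), which just missed the threshold. That slope passed for 2.4% of all genes and for 0 of these 10 (3 at an unadjusted p under 0.05, Slc40a1, Fth1 and Aco1). With the hair shaft level in the model the KI effect on Slc40a1 was 0.26 ± 0.26. Both hair shaft fits were added after the values were seen. As the level separates the prefixes fully, its slope and the prefix difference of Slc40a1 cannot be told apart. What part the hair shaft cells have in the Slc40a1 values was not tested.

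**Figure D2:**
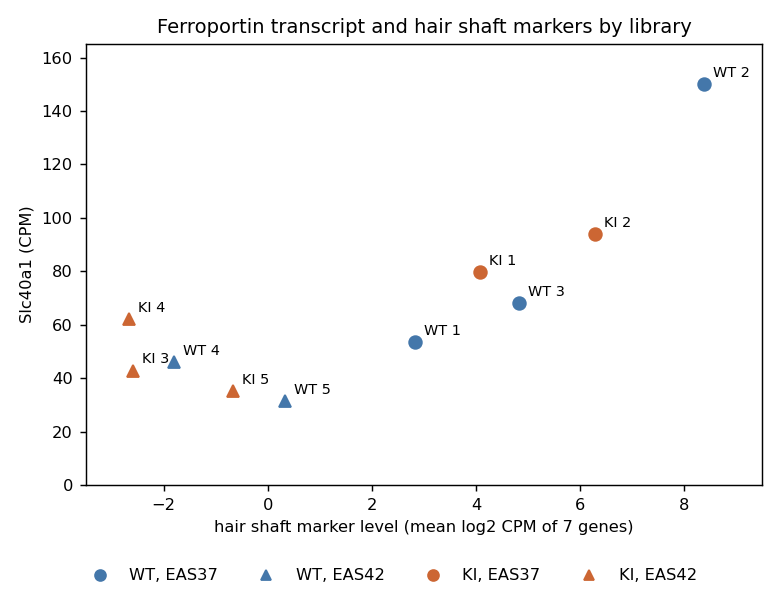
Slc40a1 in CPM (vertical axis) against the hair shaft marker level (horizontal axis, mean log2 CPM of 7 genes) in each library, WT in blue and KI in orange, circles for EAS37 and triangles for EAS42. WT 2 is at the upper right (level 8.38), followed by KI 2 (6.29), while EAS42 libraries of both genotypes lie at levels below 0.5 with 31.4 to 62.2 CPM.

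Cp, the copper ferroxidase ceruloplasmin (chromosome 3, 19957054 to 20009145, plus strand), fell by 42.8% in KI skin in the count model. Its TPM was 11.9, 12.9, 19.4, 13.1 and 10.5 in WT 1 to WT 5 and 6.43, 9.93, 6.26, 8.56 and 7.53 in KI 1 to KI 5. All KI libraries lay below all WT libraries, with KI 2 (9.93 TPM) close to WT 5 (10.5 TPM) and WT 3 well above the rest. On the log2 scale this was -0.81 ± 0.17 (edgeR adjusted p = 0.00663) and -0.62 in the leave-one-out fit nearest to 0, where it still passed. It was -0.85 ± 0.26 within EAS37 (edgeR adjusted p = 0.02745) and -0.69 ± 0.25 within EAS42, where it did not pass (edgeR adjusted p = 0.0901). Fitted on the libraries of 1 prefix alone the calls turned round, with Cp at -0.83 for EAS37 (edgeR adjusted p = 0.0863) and -0.70 for EAS42 (edgeR adjusted p = 0.0273). Cp overlaps Hps3 on the opposite strand, which held 19.9 CPM with a log2 fold change of -0.05, and whether the counting used strand is not stated.

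Heph, hephaestin, the membrane-bound ferroxidase that works beside ferroportin (chromosome X, 96455359 to 96574485, plus strand), did not pass over all libraries. Its TPM was 8.50, 7.43, 8.73, 11.8 and 10.3 in WT 1 to WT 5 and 6.44, 6.89, 6.97, 9.19 and 6.20 in KI 1 to KI 5. KI 4 lay inside the WT range and the other KI libraries below it. Its log2 fold change was -0.32 ± 0.15 (edgeR adjusted p = 0.116; 95% interval -0.64 to 0.00060). It was -0.10 ± 0.16 within EAS37 and -0.59 ± 0.16 within EAS42, where it passed (edgeR adjusted p = 0.0328) though not when EAS42 libraries were fitted alone (edgeR adjusted p = 0.0548), and the difference of -0.49 ± 0.22 did not pass (edgeR adjusted p = 0.286). The pseudogene Rpl17-ps8 lies within Heph on the same strand and held 22.3 CPM against 27.2 CPM for Heph, so the values of Heph carry some uncertainty.

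Aco1, which is the cytosolic aconitase when it holds an iron-sulfur cluster and IRP1 when it does not (chromosome 4, 40143081 to 40198338, plus strand), did not pass. Its TPM was 35.9, 23.4, 30.6, 27.3 and 29.2 in WT 1 to WT 5 and 17.9, 20.4, 27.0, 29.0 and 36.1 in KI 1 to KI 5. KI libraries held both the lowest value (KI 1) and the highest (KI 5). KI over WT stood at -0.06 ± 0.15 in log2 (edgeR adjusted p = 0.777; 95% interval -0.39 to 0.26). It was -0.42 ± 0.15 within EAS37 (edgeR adjusted p = 0.0545) and 0.14 ± 0.15 within EAS42 (edgeR adjusted p = 0.565), and the difference of 0.55 ± 0.21 did not pass (edgeR adjusted p = 0.212).

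Ireb2, the iron regulatory protein that is degraded when iron is ample (chromosome 9, 54863789 to 54912530, plus strand), was the least variable of the 10 genes over the 10 libraries. Its TPM was 20.2, 19.1, 20.2, 16.2 and 17.8 in WT 1 to WT 5 and 16.7, 20.6, 19.5, 20.8 and 19.1 in KI 1 to KI 5. In TPM the groups overlapped almost fully. In CPM they overlapped in part, at 67.1 to 80.4 in WT and 77.0 to 88.9 in KI. Ireb2 had a log2 fold change of 0.13 ± 0.07 (edgeR adjusted p = 0.184; 95% interval -0.03 to 0.28).

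The difference between prefixes, tested for each gene as an interaction, passed for 0 of the 10 genes in edgeR (2 at an unadjusted p under 0.05, Slc11a2 and Aco1) and for 0.866% of all genes. Within EAS37 4 of the 10 genes passed (Slc11a2, Cp, Fth1 and Ftl1), against 35.8% of all genes. Within EAS42 2 passed (Heph and Fth1), against 15.1% of all genes. Fitted on EAS42 libraries alone, Cp and Fth1 passed and Heph did not, so which genes pass under a prefix depends on the fit. Fth1 passed within both, and for the others a pass under 1 prefix does not show a difference between them.

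**Figure D3:**
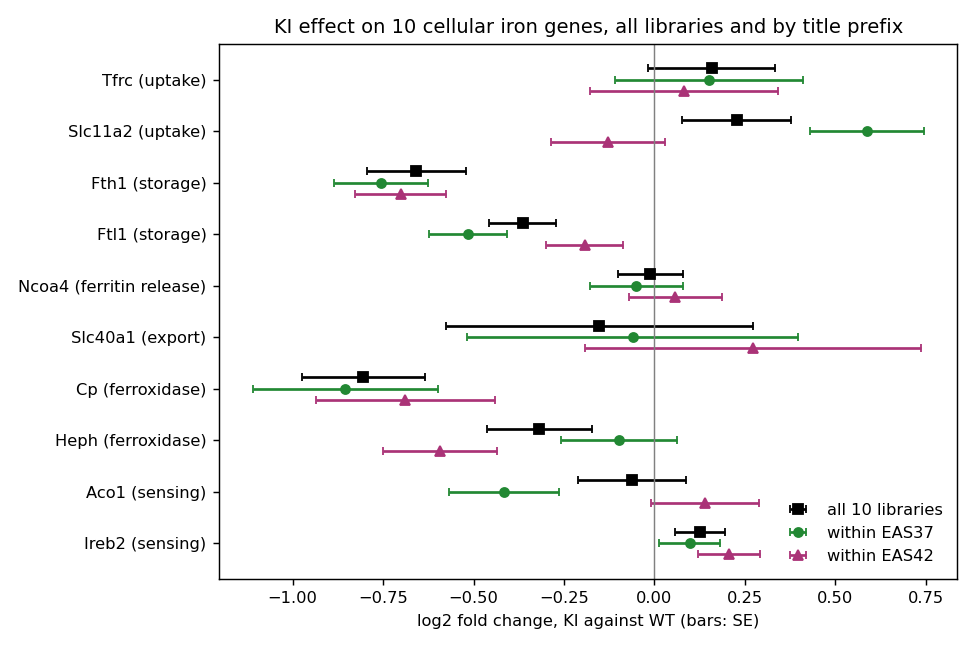
Log2 fold change of KI over WT (horizontal axis; bars are SE) for the 10 genes over all libraries (black squares), within EAS37 (green circles) and within EAS42 (purple triangles). Fth1 (-0.66, -0.76 and -0.70) and Cp (-0.81, -0.85 and -0.69) lie left of 0 in each, and Slc11a2 lies on opposite sides of 0 (0.59 and -0.13).

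Ratios of TPM within a library compare genes without a common scale factor. Tfrc over Fth1, uptake against storage, was 0.0195, 0.0167, 0.0249, 0.0193 and 0.0201 in WT 1 to WT 5 and 0.0343, 0.043, 0.0401, 0.0331 and 0.0262 in KI 1 to KI 5. Every KI library lay above every WT library, and the group means of the log2 ratio differed by 0.80, or 1.75-fold. By an exact two-sided permutation test p was 0.00794, the lowest value this design can reach, and p = 0.0556 adjusted over 7 ratios. Ncoa4 over Fth1 went from 0.0248 ± 0.00527 to 0.0395 ± 0.00848 (SD, n = 5 each; exact permutation p = 0.0238, adjusted p = 0.0833), with the ranges overlapping between 0.0299 (KI 3) and 0.0309 (WT 1). Of the 7 ratios 0 passed after adjustment and 2 had an unadjusted p under 0.05, but a single fully separated ratio cannot go below an adjusted p of 0.0556 in this design, so the count of 0 says nothing about the ratios. Both have Fth1, already seen to fall, as the denominator.

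The heavy to light chain ratio, Fth1 over Ftl1, which is known to differ between tissues, was 1.69 ± 0.38 in WT and 1.32 ± 0.205 in KI (SD, n = 5 each; exact permutation p = 0.111, adjusted p = 0.222). The highest ratios were in WT 4 and WT 5 (2.12 and 2.01), and the lowest in KI 2 (1.13). Ceruloplasmin over hephaestin was 1.496 ± 0.491 in WT and 1.097 ± 0.229 in KI (exact permutation p = 0.127, adjusted p = 0.222). Ireb2 over Aco1 was 0.647 ± 0.0995 in WT and 0.782 ± 0.191 in KI (exact permutation p = 0.230, adjusted p = 0.322). Slc11a2 over Tfrc and Slc40a1 over Tfrc had overlapping groups (exact permutation p = 0.778 and 0.786).

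**Figure D4:**
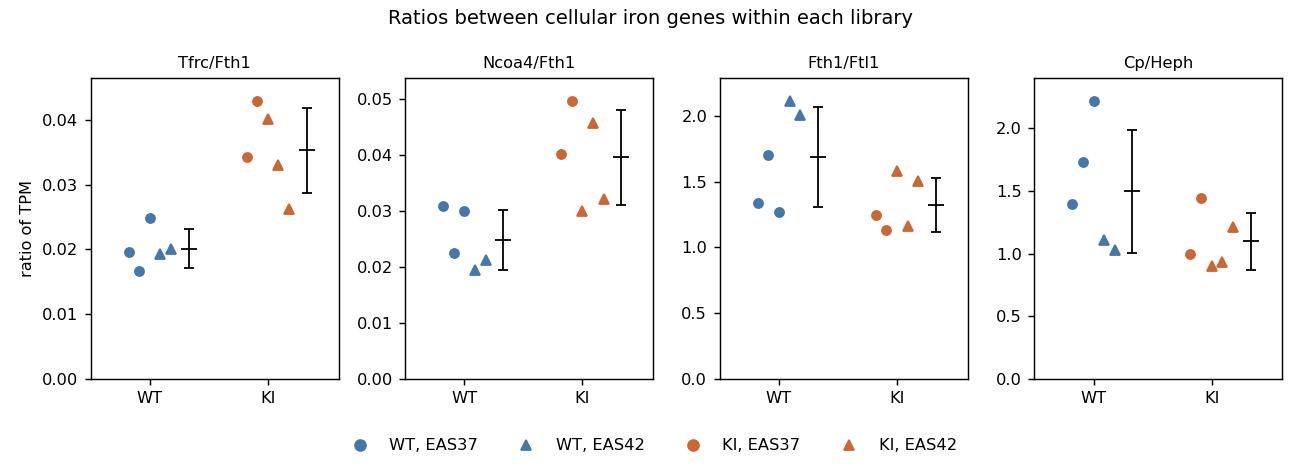
Ratios of TPM within each library (vertical axes, each from 0) for WT (blue) and KI (orange), circles for EAS37 and triangles for EAS42; black marks and bars are mean and SD. Tfrc/Fth1 shows no overlap (at most 0.0249 in WT, at least 0.0262 in KI), while Ncoa4/Fth1, Fth1/Ftl1 and Cp/Heph overlap.

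The falls of Fth1, Ftl1 and Cp stood beside lower levels of markers of other tissues in the same libraries. Of all genes tested 15.3% fell. Markers that fell numbered 7 of 10 for adipocytes, 7 of 8 for endothelium, 7 of 8 for Schwann cells, 5 of 6 for smooth muscle, 3 of 8 for fibroblasts and 3 of 20 for skeletal muscle, the last a share at the background. In each of these lists 0 rose. The level did not overlap between the groups for adipocytes, for endothelium (4.51 to 5.00 in WT, 3.74 to 4.24 in KI), for Schwann cells (5.51 to 6.79 and 4.19 to 5.28) and for smooth muscle (6.19 to 6.49 and 4.57 to 5.77). Fibroblast and skeletal muscle levels overlapped. Of macrophage markers, cells that hold much ferritin and ferroportin, 1 of 10 rose and 0 fell, with a level of 4.03 to 4.94 in WT and 4.48 to 5.28 in KI. Red blood cell markers, of which 0 of 6 measured passed, ran from 4.82 to 5.88 in WT and from 4.17 to 5.68 in KI. Of 10 neutrophil markers listed only 3 passed the filter on low counts, and these 3 rose. Their mean level was -1.32 to 0.24 log2 CPM in WT and 2.21 to 3.49 in KI. With WT levels this low they may have passed that filter through the KI libraries alone, so their rise is a description only. Ly6g was at 0 in every library. Activated keratinocyte markers rose in 6 of 7.

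Each of 5 marker levels was then put into the model beside the genotype. With the muscle level 1 of the 10 genes passed, Cp at -1.04 ± 0.23 (edgeR adjusted p = 0.0402), against 2.63% of all genes. Fth1 was then at -0.34 ± 0.13 (edgeR adjusted p = 0.192) and Ftl1 at -0.36 ± 0.13 (edgeR adjusted p = 0.169). With the adipocyte level 0 of the 10 passed (1 at an unadjusted p under 0.05, Fth1) and 0.779% of all genes did. Fth1 kept its size at -0.68 ± 0.27 (edgeR adjusted p = 0.309), while Ftl1 was at -0.06 ± 0.15 and Cp at -0.31 ± 0.29. With the fibroblast level 0 passed (2 at an unadjusted p under 0.05, Fth1 and Cp) against 7.37% of all genes, with Fth1 at -0.60 ± 0.19 (edgeR adjusted p = 0.0819), Ftl1 at -0.21 ± 0.11 and Cp at -0.52 ± 0.21.

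With the macrophage level Fth1, Ftl1 and Cp passed, against 14.3% of all genes, at -0.49 ± 0.13, -0.45 ± 0.09 and -1.04 ± 0.14. With the hair shaft level 4 genes passed, against 38.2% of all genes, and Heph joined them at -0.37 ± 0.13 (edgeR adjusted p = 0.0429). Muscle, adipocyte and fibroblast levels moved with the genotype themselves, and what goes with the level and what goes with the genotype cannot be told apart fully in 10 libraries. Which cells the falls of Fth1, Ftl1 and Cp come from cannot be told apart in these libraries.

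**Figure D5:**
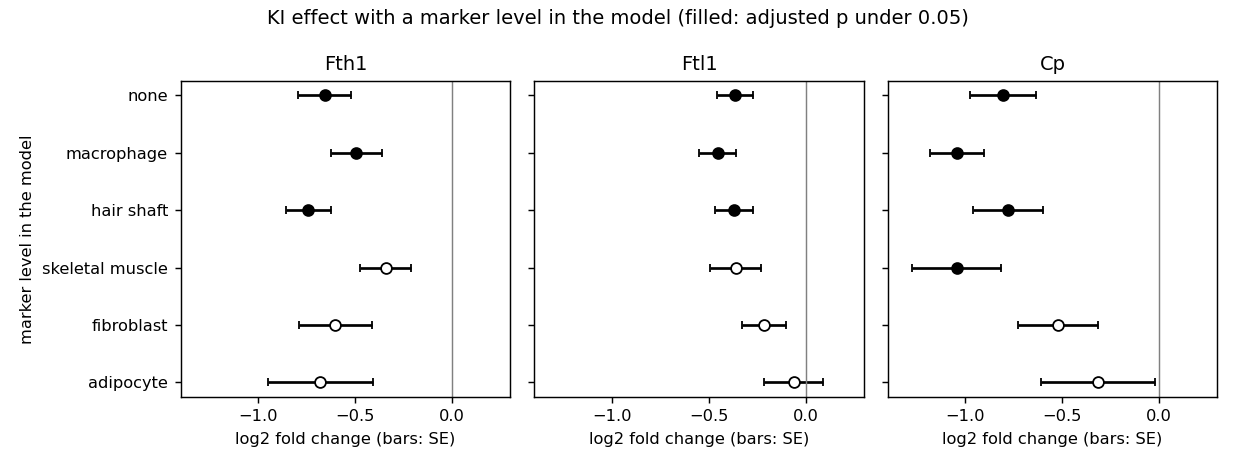
Log2 fold change of KI over WT (horizontal axes; bars are SE) for Fth1, Ftl1 and Cp with no marker level or with 1 of 5 marker levels in the model (rows); filled points have an adjusted p under 0.05. Fth1 stays between -0.74 and -0.34, Ftl1 reaches -0.06 with the adipocyte level, and Cp ranges from -1.04 to -0.31.

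Around these genes, 5 lists of iron genes are described by their counts, to be read against the 15.6% of all genes that rose and the 15.3% that fell. Of 15 measured (16 listed) reductases, carriers and iron chaperones of iron uptake 4 rose, 2 fell and 9 did not pass (6 of 15, against 30.9% of all genes either way), and the median of log2 changes was -0.10. Lcn2, the siderophore-binding lipocalin, rose from 1.497 ± 1.37 to 36.3 ± 20.4 CPM (SD, n = 5 each, edgeR adjusted p = 0.00114). Activated keratinocyte markers rose too, as did the neutrophil markers (3 measured of 10 listed), which may have passed the filter through KI alone. The part of either was not tested. Frrs1, a ferric reductase, rose from 40.5 ± 2.81 to 64.9 ± 5.19 CPM (edgeR adjusted p = 4.00e-04), and the metalloreductase Steap2 from 4.56 ± 0.675 to 7.79 ± 1.75 CPM (edgeR adjusted p = 0.0105). Cybrd1, the ferric reductase duodenal cytochrome b, fell from 8.004 ± 4.13 to 2.33 ± 1.05 CPM (edgeR adjusted p = 0.0103). Steap1 also rose and Steap3, the reductase of the transferrin cycle, also fell (-0.68 ± 0.18, edgeR adjusted p = 0.0152). Steap1 was under 1.5 CPM in every library and lost its pass without KI 1 or without KI 2 (largest edgeR adjusted p = 0.053). It lay between 0 and 0.44 CPM in WT and between 0.52 and 1.41 CPM in KI. At such levels it may have passed the filter on low counts through the KI libraries alone. Its rise, counted among the 4, is therefore a description only.

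Genes that turn over the iron regulatory proteins and ferritin showed little change. Of 15 measured 1 fell, 0 rose (also 0 at an unadjusted p under 0.05) and 14 did not pass, and the median log2 fold change was -0.01, with a median size of 0.10 against 0.30 over all genes. The autophagy adaptor Sqstm1 fell from 203 ± 28.4 to 164 ± 17.9 CPM (edgeR adjusted p = 0.0483), and this call was lost in 8 of 10 fits with 1 library left out (all but those without WT 4 or KI 5). Fbxl5, the iron-sensing subunit that marks Ireb2 for degradation, went from 64.2 ± 4.49 to 68.7 ± 5.20 CPM (edgeR adjusted p = 0.329).

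Other transcripts known to carry an iron-responsive element fell in 4 of 6 and rose in 0 (0 at an unadjusted p under 0.05), and the median of log2 changes was -0.46. The kinase Cdc42bpa fell from 57.2 ± 5.02 to 43.3 ± 1.30 CPM (edgeR adjusted p = 0.00314) and the actin-binding profilin Pfn2 from 84.9 ± 18.6 to 52.2 ± 8.90 CPM (edgeR adjusted p = 0.00779). Epas1, the hypoxia factor HIF-2 alpha, fell from 123 ± 13.4 to 100.5 ± 10.4 CPM (edgeR adjusted p = 0.0371), a call lost in 7 of 10 fits without 1 library (those without WT 1, WT 2, WT 4, KI 1, KI 2, KI 4 or KI 5). The phosphatase Cdc14a fell from 19.5 ± 5.91 to 13.6 ± 1.65 CPM (edgeR adjusted p = 0.0493), a call lost in 8 of 10 (all but those without WT 1 or WT 4). Of endothelial markers 7 of 8 were lower in KI too, and their part in the fall of Epas1 was not tested.

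In the hepcidin axis, of 11 measured (12 listed) genes, Hamp rose, 6 fell (against 15.3% of all genes) and 4 did not pass, and the median log2 fold change was -0.52. Neogenin (Neo1), a coreceptor of BMP signals, fell from 84.9 ± 3.98 to 59.05 ± 3.67 CPM (edgeR adjusted p = 5.38e-04). The BMP ligands that drive hepcidin in the liver fell too, Bmp6 from 11.2 ± 2.51 to 5.08 ± 1.69 CPM (edgeR adjusted p = 0.00747) and Bmp2 from 60.2 ± 17.6 to 20.9 ± 10.5 CPM (edgeR adjusted p = 0.00927). The other 3 that fell were Id1, Smad7 and Hamp2, a near copy of Hamp. Hamp2 went from 46.8 ± 22.3 to 3.18 ± 5.26 CPM. Reads of Hamp and Hamp2 may be split with some error, and the part of this in the Hamp2 values was not tested. Id1 and Smad7 each lost the call in 5 of 10 fits without 1 library (WT 1, KI 3, KI 4 and KI 5 in both, with WT 3 for Id1 and KI 1 for Smad7), and Hamp2 without KI 1 or without KI 4.

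Of 11 measured (12 listed) genes of mitochondrial iron and heme, 2 rose, 1 fell and 8 did not pass, near the 30.9% of all genes that passed either way, and the median of log2 changes was -0.09. The mitochondrial iron importer Slc25a28 rose from 41.1 ± 2.24 to 51.7 ± 4.86 CPM (edgeR adjusted p = 0.0103). Hmox2, the constitutive heme oxygenase, rose from 37.1 ± 1.84 to 42.7 ± 2.05 CPM (edgeR adjusted p = 0.0335), a call lost without WT 3, WT 4, WT 5, KI 2 or KI 4. The heme transporter Slc48a1 fell from 86.0 ± 8.88 to 67.6 ± 6.955 CPM (edgeR adjusted p = 0.0176). Hmox1, the inducible heme oxygenase that frees heme iron, measured 70.0 ± 10.9 CPM (WT) and 72.2 ± 4.99 CPM (KI) (edgeR adjusted p = 0.765). The mitochondrial ferritin Ftmt had 0 counts in every library.

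Of the 21 genes of these lists that passed, 4 still did with the muscle level in the model, namely Hamp, Frrs1 (0.66, edgeR adjusted p = 0.0139), Lcn2 (3.85, edgeR adjusted p = 0.0351) and Neo1 (-0.44, edgeR adjusted p = 0.0254). All 21 kept their direction there. Within EAS37 and EAS42 the log2 fold change was 0.77 and 0.59 for Frrs1, 4.80 and 5.29 for Lcn2, -0.63 and -0.44 for Neo1 and -2.20 and -0.88 for Cybrd1.

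For each of the 10 genes the 3 tested genes with the most similar profile were found by the root mean square difference in log2 CPM over the 10 libraries, each gene set to its own mean. Closest to Fth1 were Ankrd40, Scmh1 and Arl6ip5 (differences of 0.08 to 0.09, against an SD of Fth1 itself of 0.41), and all 3 fell, by log2 fold changes of -0.54, -0.75 and -0.70. Closest to Ftl1 were Kctd15, Slc38a10 and Atrip, and closest to Cp were Tuba1a, Zfp354c and Armcx2, and all 6 fell too. Neither ferritin chain was among the 3 closest genes of the other. Closest to Slc40a1 were Gm30124, Pgm2 and Arid3a (0.18 to 0.19, against an SD of 0.69). Closest to Tfrc were Vegfa, Ndufaf4 and Calm2 (0.17 to 0.19, against an SD of 0.29). Closest to Slc11a2 were Ezr, Midn and Tuba4a, to Heph Ppp4r4, Rif1 and Itpkb, to Ncoa4 Shisa5, Pja1 and Tmem115, to Aco1 Mfsd8, Zfp202 and Hibadh, and to Ireb2 Senp3, Tug1 and Snx4. The profiles were matched over libraries of both genotypes, so a fall shared with Fth1, Ftl1 or Cp is built into the choice. With 10 libraries and 17321 genes close profiles are found for any gene, so these names are a description.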

How the data were processed

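RNA from whole skin, extracted with trizol, entered an Illumina stranded mRNA library kit, per the labels' protocols. Tools listed, per the submitters' processing notes and with no role stated, are DESeq2 1.14.1, STAR 2.5.2b, featureCounts, Picard 2.8.1 and FastQC, and the build is GRCm38. The deposited tables have the columns of RSEM. The authors' expected counts (estimates, 10.4% to 12.2% of values per library not whole) were rounded for testing. TPM deposited by the authors gave levels and ratios, the mean transcript length is the deposited one, and FPKM deposited by the authors was not used. Not given in the sources used here are the RSEM version, its annotation and its strand setting. Names came from GENCODE M21 for 55227 of 55487 identifiers, with 0.0113% of counts in the 260 unnamed ones.

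Groups come from titles. Replicate numbers follow accession order and pair nothing. No 2 libraries of a group agreed within sampling noise (lowest chi-square per gene 27.0). Genes passing edgeR's filterByExpr (minimum count 10, minimum total 15) were fitted with edgeR 4.0.16 in R 4.3.3 (robust quasi-likelihood, TMM, adjusted over all 17321 genes). CPM uses TMM library sizes. Intervals of fold changes are at 95% from the moderated degrees of freedom. An interaction of genotype and prefix gave the values within prefixes. Alternatives were other normalizations, filters and tools (DESeq2 1.42.0, limma 3.58.1 voom), the prefix as a block, marker levels as covariates, each prefix alone, and libraries left out. Tests were tried on simulated data.

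The 10 genes, the 5 pathway lists, the marker lists and the alternatives were chosen with earlier results of these data known. Of 190 list names 6 were not matched, 4 of them second names of matched genes. Named genes are the 10 members, Hamp, up to 4 genes per pathway list with the smallest p among those that passed, and the 3 most similar genes per member. Steap1, Steap3, Hamp2, Id1, Smad7, Fbxl5, Hmox1, Ftmt and the genes overlapping or copying a member were named outside that rule.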

Additional observations from a re-analysis of the deposited data

Results flagged for a closer look

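Within-group gaps were looked at in 54 groups of 5 libraries (CPM, ratios and mean transcript lengths), and 4 had 1 library whose gap to the next exceeded 0.71 of the group's range; chance alone gives about 1 in 20. Tfrc in KI 3 was at 134.9 CPM, against 73.0 to 88.5 CPM in the other KI libraries. The mean transcript length of Slc11a2 in KI 3 was 3370 bases, against 3033 to 3104 bases in the other KI libraries. In WT 1 that length was 3343 bases, close to KI 3. The Slc11a2 level of KI 3 was 47.4 CPM, between 32.8 CPM (KI 5) and 57.5 CPM (KI 1). Both flagged values come from the same library, and Tfrc and Slc11a2 are the genes with a 3′ UTR match. Whether the flagged values are linked, or have to do with the elements, was not tested. The Hamp level of KI 3 (104.4 CPM) lay inside the range of the other KI libraries, and its muscle level (10.31) was the highest of its group. Cp in WT 3 was at 38.8 CPM, against 21.2 to 23.9 CPM in the other WT libraries. The ratio of Slc40a1 to Tfrc in TPM was 2.69 in WT 2, against 0.379 to 0.906 in the other WT libraries, and WT 2 also had the highest hair shaft level of all libraries (8.38).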

How the results depend on the processing

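Over 26 alternatives Cp and Fth1 passed in 23 and Ftl1 in 22, each with the same sign in all 26. The number of the 10 genes that passed (3) was 3 or 4 without each library in turn, 1 with the muscle level and 0 with the adipocyte or the fibroblast level in the model. With EAS37 alone Cp was at -0.83 (edgeR adjusted p = 0.0863), and with EAS42 alone Ftl1 was at -0.20 (edgeR adjusted p = 0.218). Listed pathway genes that passed (21) were 4 with the muscle level and 14 to 20 without each library in turn. Among genes that did not pass, the sign turned for Slc11a2 with EAS42 alone (-0.14). It turned for Slc40a1 with the prefix as a block (0.11), the hair shaft level (0.26), EAS42 alone (0.26) and without WT 2 and KI 2 (0.14). Aco1 turned with the muscle (0.15), adipocyte (0.32) and fibroblast levels (0.26) and EAS42 alone (0.13), and Ncoa4 with the block (0.0043), the adipocyte (0.22) and fibroblast levels (0.14) and EAS42 alone (0.047). The cause of these changes was not tested. Without each library in turn log2 fold changes ran from -0.036 to 0.24 for Tfrc (below 0 without KI 3), 0.16 to 0.35 for Slc11a2, -0.34 to 0.33 for Slc40a1 (above 0 without WT 2 or KI 5), -0.17 to 0.015 for Aco1 (above 0 without KI 1 or KI 2) and -0.059 to 0.048 for Ncoa4, and log2 ratio differences from -0.059 to 0.23 for Slc11a2 over Tfrc and -0.46 to 0.24 for Slc40a1 over Tfrc. Among these alternatives Heph passed only with the hair shaft level, and Slc11a2 with EAS37 alone (0.61) and without KI 5. In the fit on genotype alone, with an SE of 0.42, a change of Slc40a1 as large as that of Fth1 was not detectable. The SE of Slc40a1 was 0.30 with the prefix as a block and 0.26 with the hair shaft level. Whether those fits could detect such a change was not tested. No paired analysis was possible because the labels give no replicate numbers that link a WT to a KI mouse.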
